A study of Mus musculus with 6 samples.

Results

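The growth hormone receptor to IGF-1 axis of the liver was followed through 10 genes, Ghr, Jak2, Stat5a, Stat5b, Socs2, Cish, Igf1, Igfals, Bcl6 and Cux2, in mice after surgery on the portal vein. Probes were assigned by the RefSeq transcript they are annotated to, which gave 17 probes for the 10 genes, out of 55681 probes on the array, and each probe was kept on its own. The ligated animals were male C57BL/6J mice whose left portal vein branch had been tied (PVBL), with the right lobe, which keeps its portal inflow, collected as regenerating liver 3 days later. They were set against sham-operated male C57BL/6J mice sampled at the same time. Each group had 3 liver samples, with 1 single-colour (Cy3) Agilent array per sample. Below, a liver means 1 such sample. Whether each sample came from its own mouse is not stated in the labels, so the p-values rest on a spread between samples that may be technical.

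Growth hormone from the pituitary binds its receptor on hepatocytes, and the receptor-bound kinase JAK2 then phosphorylates STAT5. STAT5 enters the nucleus and induces Igf1, Igfals and the feedback inhibitors Socs2 and Cish. In male rodents the hormone is secreted in pulses and hepatic STAT5 activity follows them, whereas secretion in females is more continuous. The repressors BCL6, which is higher in male liver, and CUX2, which is found in female liver, act on overlapping sets of sex-biased genes. This is background knowledge and not a result of these arrays.

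The promoters of 3 of these genes are shown because they hold the STAT5 recognition letters TTCNNNGAA, a palindrome that reads the same on both strands. RefSeq promoter windows (build GRCm38.p6, 250 bases before to 50 bases after an annotated start) were found for 9 of the 10 genes, 16 windows in all, and 5 windows of Cish, Igfals and Bcl6 matched. Among all 32851 windows, 8.30% held at least 1 match and 0.457% held 2 or more. Cish has 2 matches, at bases 1 and 12 from the annotated start. The Bcl6 window shown has 3, and only 0.0335% of all windows have 3 or more. The Igfals window shown carries the letters TTCCTAGAA, the known BCL6 recognition sequence, which is itself 1 form of TTCNNNGAA and was found on either strand in 0.411% of all windows. Matched letters are in capitals below. A match describes the letters of the window and not the binding of a factor.

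Cish, chr9:107296409-107296708, plus strand: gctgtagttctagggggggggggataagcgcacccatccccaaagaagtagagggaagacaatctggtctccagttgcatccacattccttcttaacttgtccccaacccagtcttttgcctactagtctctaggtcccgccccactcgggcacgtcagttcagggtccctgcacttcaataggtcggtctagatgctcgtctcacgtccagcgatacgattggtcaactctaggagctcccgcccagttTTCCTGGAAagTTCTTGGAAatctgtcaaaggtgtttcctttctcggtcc
Bcl6, chr16:23981234-23981533, minus strand: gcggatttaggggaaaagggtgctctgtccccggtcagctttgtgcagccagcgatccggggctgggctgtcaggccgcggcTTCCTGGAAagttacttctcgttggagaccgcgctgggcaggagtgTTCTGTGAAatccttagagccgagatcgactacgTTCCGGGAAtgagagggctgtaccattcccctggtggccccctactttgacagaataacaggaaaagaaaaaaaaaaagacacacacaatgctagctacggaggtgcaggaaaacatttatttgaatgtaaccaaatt
Igfals, chr17:24877981-24878280, plus strand: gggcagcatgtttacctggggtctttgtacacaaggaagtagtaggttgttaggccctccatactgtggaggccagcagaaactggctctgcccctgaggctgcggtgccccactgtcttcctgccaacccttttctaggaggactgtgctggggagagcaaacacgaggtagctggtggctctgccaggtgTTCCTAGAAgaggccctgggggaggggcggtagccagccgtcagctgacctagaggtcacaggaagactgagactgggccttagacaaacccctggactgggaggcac

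The arrays were of similar quality. Between 48.0% and 53.6% of probes were well above background on an array, and the signal at the 75th percentile was 331 to 407 units on PVBL arrays and 203 to 315 units on sham arrays. No probe was saturated. Arrays correlated with r from 0.983 to 0.991 within PVBL, from 0.991 to 0.996 within sham and from 0.956 to 0.968 between groups, over the 27909 probes tested (probes are not independent replicates). All 6 arrays lay on 1 slide and were scanned together, with PVBL in slide row 2 and sham in slide row 1, so row and surgery cannot be told apart. Arrays with the same replicate number shared a slide column. All 10 hepatocyte markers, albumin among them, were well above background on all 6 arrays.

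Levels are log2 signal relative to the 75th percentile of the same array. A single level is compared between arrays for the same probe. Summed levels of marker genes and differences between probes are likewise compared between arrays. A sum is taken on the linear scale, so it mostly follows its brightest probes. Of the 17 probes, 16 were well above background on all 6 arrays and were tested; the probe for Cux2 was below it on every array. In limma with Benjamini-Hochberg adjustment over all 27909 probes, 8 of the 16 probes were called lower in PVBL and 0 higher at an adjusted p threshold of 0.05, where 19.3% of all tested probes were called lower and 11.3% higher (30.5% in either direction). The count was 5 without sham 1. By genes, Ghr, Jak2, Stat5b, Igfals and 2 of the 4 Igf1 probes fell. Stat5a, Socs2, Cish, Bcl6 and the other Igf1 probes did not pass the threshold. With each gene read from its brightest tested probe, 4 of the 9 genes tested were lower and 0 higher. By that rule 16.8% of all genes tested were lower and 14.4% higher. The median log2 difference was -0.74 over the 16 probes and -0.19 over all tested probes. The groups did not overlap in 11 of the 16 probes, against 50.6% of all tested probes.

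The size of these falls depended on how the arrays were scaled. Scaling on spike-in probes moved the median of all tested probes to 0.25 and left 0 of the 16 probes called, the largest fall then being that of Ghr (-0.97, limma adjusted p = 0.161). The split of all calls was 3142 higher and 5374 lower as reported, 3990 and 3289 with median scaling, and 2273 and 368 with spike-in scaling. With no filter on dim probes 4 of the 16 were called, and the calls of Jak2, Igfals, Stat5b A_55_P2031045 and Igf1 A_55_P2031636 were lost. Each fall below is thus one relative to most probes of the array.

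**Figure D1:**
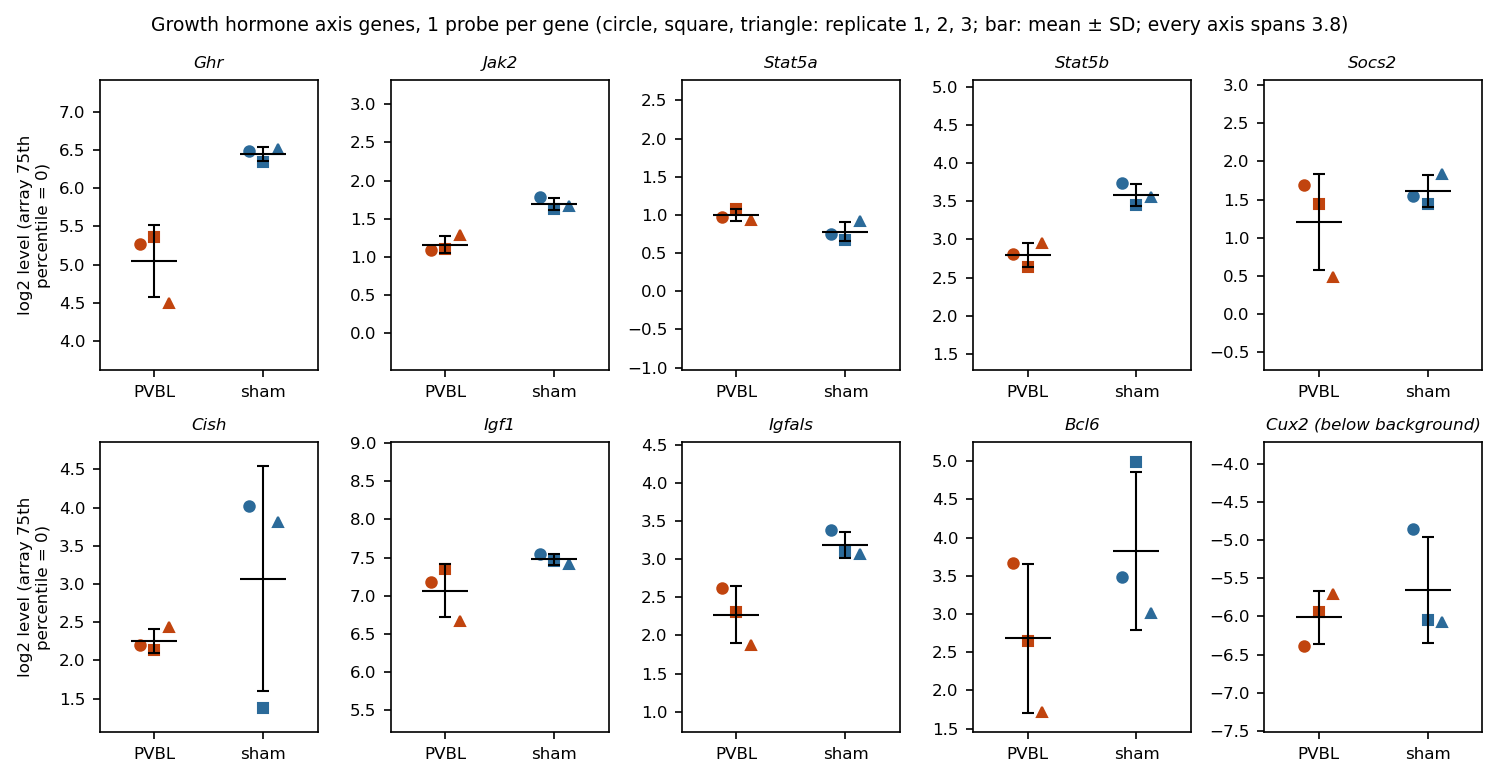
Log2 level of the brightest probe of each gene on each array (vertical axis, 75th percentile of the array = 0), PVBL left and sham right, with mean ± SD of 3 arrays. Ghr, Jak2, Stat5a, Stat5b, Igf1 and Igfals do not overlap between the groups, Cux2 is below background on all arrays, and Socs2, Cish and Bcl6 overlap, with Cish at 1.37 in sham 2.

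Ghr, the gene of the growth hormone receptor, fell the most of the genes called. Its brighter probe (A_55_P2059412) had log2 levels of 5.27, 5.37 and 4.50 in PVBL livers, against 6.49, 6.35 and 6.51 in sham livers. Every PVBL liver lay below every sham liver, and PVBL 3 was the lowest. The log2 difference was -1.40 ± 0.24 (SE, n = 3 per group, limma adjusted p = 0.00649), or 2.65-fold lower. The other probe (A_51_P499854) had levels of 4.72, 4.82 and 4.24 in PVBL livers and 5.85, 5.79 and 5.94 in sham livers, a difference of -1.27 ± 0.18 (limma adjusted p = 0.00345). The 2 probes are annotated to different transcripts of the gene, and their changes did not differ past the threshold (difference -0.14 ± 0.10, limma adjusted p = 0.520). Among all tested probes, only 2.18% had a difference as low as that of the brighter Ghr probe. Without PVBL 3 the differences of the 2 probes were -1.13 and -1.09, and both calls held.

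Jak2, the kinase that the receptor carries, fell by a smaller amount. Its levels were 1.09, 1.10 and 1.29 in PVBL livers, against 1.79, 1.63 and 1.67 in sham livers. The groups were apart, with little spread within either. The log2 difference was -0.53 ± 0.13 (limma adjusted p = 0.0210), or 1.45-fold lower. The call was lost without PVBL 1 (-0.50), sham 1 (-0.49), sham 2 (-0.57) or sham 3 (-0.55), and with median scaling (-0.40).

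Of the 2 STAT5 genes, neighbours on chromosome 11 with 0 annotated genes between them, Stat5b fell and Stat5a did not pass the threshold. Stat5b, which encodes the main STAT5 protein of the liver, had levels of 2.81, 2.64 and 2.95 in PVBL livers and 3.74, 3.45 and 3.55 in sham livers in its brighter probe (A_55_P2031043). The difference was -0.78 ± 0.15 (limma adjusted p = 0.00916), and that of its other probe (A_55_P2031045) was -0.70 ± 0.13 (limma adjusted p = 0.0103), which made them 1.72-fold and 1.63-fold lower. Both Stat5b probes separated the groups. Stat5a, its close relative, had levels of 0.98, 1.08 and 0.93 in PVBL livers and 0.75, 0.67 and 0.92 in sham livers. Its PVBL livers lay just above the sham livers, and the difference of 0.22 ± 0.13 did not pass the threshold (95% interval -0.09 to 0.52, limma adjusted p = 0.230), although array weights called it higher (0.24, limma adjusted p = 0.0463). Within an array, Stat5a minus Stat5b was 1.00 higher in PVBL than in sham for the brighter Stat5b probe (-1.80 ± 0.23 in PVBL and -2.80 ± 0.18 in sham, SD, n = 3) and 0.92 higher for the other. An exact two-sided permutation test over the 6 arrays gave p = 0.10 for each, the smallest p that 3 against 3 allows. The design could therefore not reach the 0.05 threshold, and the comparison was chosen after the values were seen, so the difference is a description. It does not change with a single scaling factor per array.

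**Figure D2:**
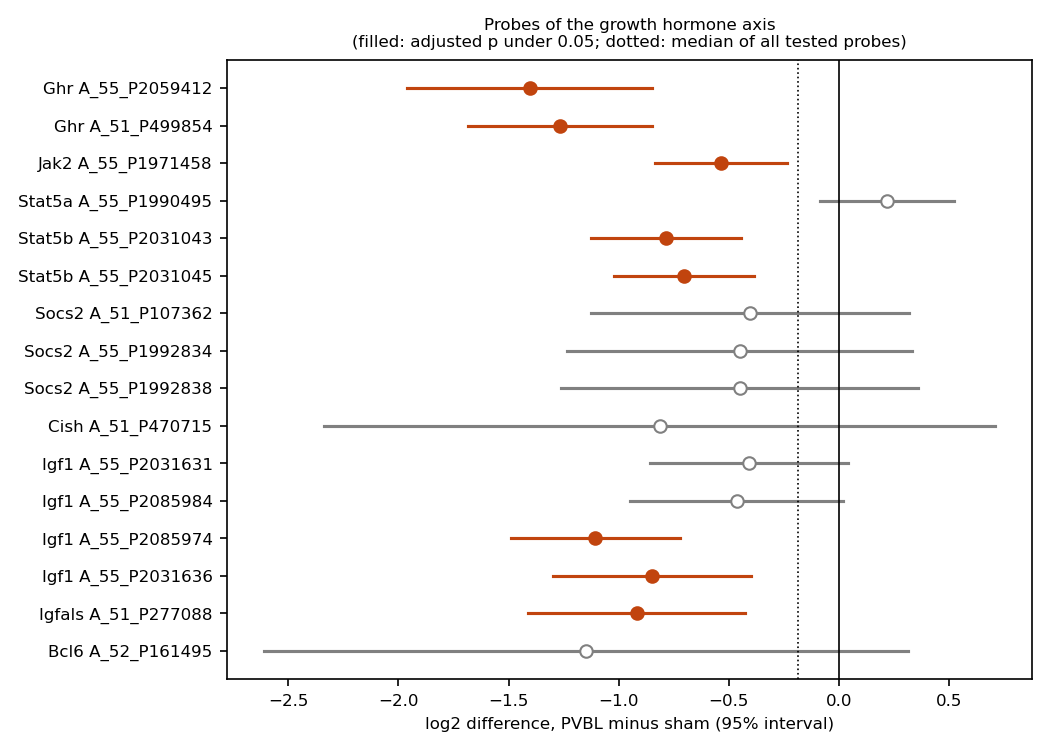
Log2 difference of PVBL minus sham with its 95% interval for the 16 tested probes (horizontal axis), with filled points where the adjusted p was under 0.05 and a dotted line at the median of all tested probes, -0.19. The intervals of Cish and Bcl6 are the widest, and Stat5a alone has a difference above 0.

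The feedback inhibitors did not pass the threshold. Socs2, the suppressor of cytokine signalling that limits growth hormone action on body size, was measured with 3 probes, 1 of them spotted 10 times on each array. That probe (A_51_P107362) had levels of 1.69, 1.44 and 0.49 in PVBL livers, against 1.55, 1.44 and 1.84 in sham livers. PVBL 1 and PVBL 2 lay within or beside the sham range, and PVBL 3 lay below all other arrays. The SD between the 10 spots of an array, a measure of spot noise only, was 0.06 to 0.12. The difference was -0.40 ± 0.31 (95% interval -1.13 to 0.32, limma adjusted p = 0.337), and it was -0.05 without PVBL 3. The other probes differed by -0.45 each (limma adjusted p = 0.325 and 0.339) with the same low array, at 0.14 and -0.17 in PVBL 3. With array weights all 3 probes were above 0 (0.05 to 0.10), as was the first with spike-in scaling (0.03).

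Cish, another SOCS family inhibitor and an immediate target of STAT5, had the largest SD within groups of the 16 probes. Its levels were 2.20, 2.13 and 2.44 in PVBL livers, against 4.02, 1.37 and 3.81 in sham livers. The PVBL livers were close together, while sham 2 lay below all PVBL livers and sham 1 and sham 3 well above them. The difference was -0.81 ± 0.65 (95% interval -2.34 to 0.71, limma adjusted p = 0.359). Without sham 2 it was -1.66 and passed the threshold (limma adjusted p = 0.00366), so this liver alone decided the call. The SD within groups was higher for Cish than for 99.1% of tested probes.

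Bcl6, the repressor whose binding sites overlap those of STAT5 in male liver, was nearly as variable. It had levels of 3.67, 2.65 and 1.72 in PVBL livers, against 3.49, 4.99 and 3.01 in sham livers. Sham 2, which had the lowest Cish level of all 6 livers, had the highest Bcl6 level. PVBL 3 had the lowest Bcl6 level and the highest Cish level of the PVBL group. The other extremes did not pair up. The highest Cish level was in sham 1 but the lowest sham Bcl6 level in sham 3. In PVBL, the lowest Cish level was in PVBL 2 but the highest Bcl6 level in PVBL 1. Both genes had a negative difference between the groups. The groups overlapped, the difference was -1.15 ± 0.62 (95% interval -2.61 to 0.32, limma adjusted p = 0.192), and it was -0.57 without sham 2 and -0.67 without PVBL 3. The SD within groups was again higher than for 99.1% of tested probes. Cux2, the female-biased repressor, stayed below background on all 6 arrays, with log2 levels from -6.38 to -5.71 in PVBL livers and from -6.07 to -4.85 in sham livers, and no difference is given for it.

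**Figure D3:**
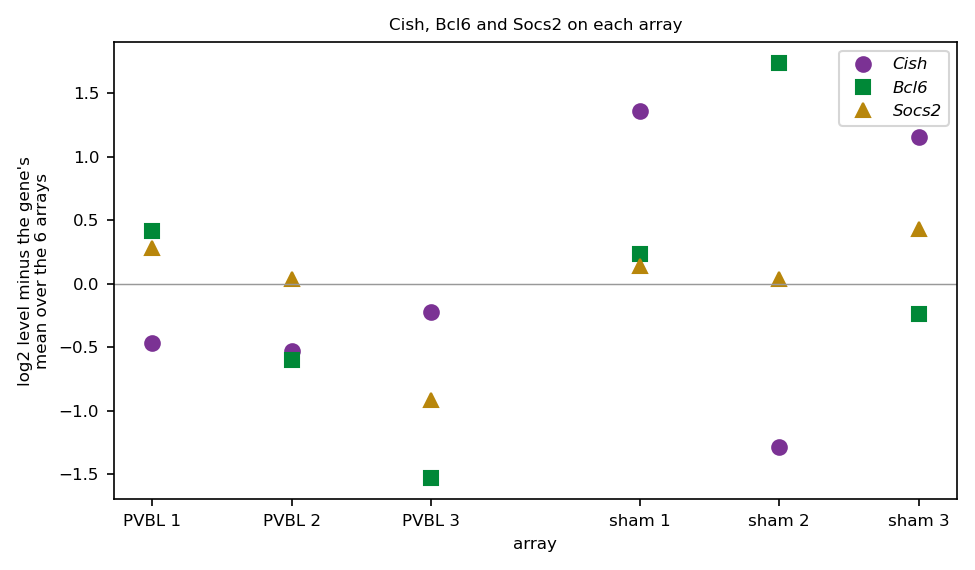
Log2 level of Cish, Bcl6 and Socs2 on each of the 6 arrays after subtraction of the gene's mean over all arrays (brightest probe of each gene). Sham 2 holds the lowest Cish and the highest Bcl6 point, and PVBL 3 the lowest Bcl6 and Socs2 points. Sham 1 holds the highest Cish point and sham 3 the lowest sham Bcl6 point.

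For Igf1, the hormone output of the axis, the calls differed by probe. The liver makes most of the circulating IGF-1, and all 4 probes, each spotted 2 times per array, are annotated to 1 transcript. The brightest (A_55_P2031631) had levels of 7.18, 7.34 and 6.67 in PVBL livers and 7.55, 7.45 and 7.42 in sham livers, a difference of -0.41 ± 0.19 that missed the threshold (limma adjusted p = 0.141). The next (A_55_P2085984) had 6.86, 6.95 and 6.22 in PVBL livers, 7.18, 7.08 and 7.16 in sham livers and a difference of -0.46 ± 0.21 (limma adjusted p = 0.124). In both, the PVBL livers lay below all sham livers, PVBL 3 by the widest margin. Without PVBL 3 the differences of the 2 probes were -0.21 and -0.24.

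The 2 dimmer Igf1 probes fell. A_55_P2085974 had 4.46, 4.26 and 3.97 in PVBL livers, against 5.30, 5.24 and 5.46 in sham livers, and was 2.15-fold lower (-1.11 ± 0.16, limma adjusted p = 0.00404). A_55_P2031636 had 1.08, 0.92 and 0.41 in PVBL livers and 1.57, 1.71 and 1.68 in sham livers and was 1.80-fold lower (-0.85 ± 0.19, limma adjusted p = 0.0173). The call of A_55_P2031636 was lost without sham 1 (-0.89), sham 2 (-0.82) or sham 3 (-0.83). The brightest probe was also called lower with array weights (-0.33). The second brightest, A_55_P2085984, was called lower in 1 of 15 alternatives (limma adjusted p = 0.0462). Those 15 include the authors' deposited value table, whose rows all separate the groups. In that table, 2913 of 7849 probes were called higher and 4736 lower.

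Whether the Igf1 probes changed unequally was tested on their differences within each array, in a limma fit over all 4708 pairs of tested probes of the same gene. Of 11 pairs of the 10 genes 2 passed, against 7.92% of all pairs. The brightest probe exceeded A_55_P2085974 by 2.84 ± 0.22 in PVBL and by 2.14 ± 0.16 in sham (SD, n = 3), a change of 0.70 ± 0.14 (limma adjusted p = 0.0428). The second brightest exceeded it by 2.45 ± 0.22 in PVBL and 1.81 ± 0.10 in sham, a change of 0.64 ± 0.13 (limma adjusted p = 0.0438). Both adjusted p-values were near the threshold, and 0 pairs passed without PVBL 1, PVBL 2, sham 1, sham 2 or sham 3, and 1 without PVBL 3. With the replicate number, and so the slide column, as a block, 0 pairs passed. Both pairs that passed in the main fit share A_55_P2085974. The other dim probe, A_55_P2031636, did not pass against the brightest probe (0.44 ± 0.12, SE, limma adjusted p = 0.0921). Nor did it pass against the second brightest (0.39 ± 0.11, SE, limma adjusted p = 0.102). Where on the Igf1 transcript each probe lies was not analysed here.

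**Figure D4:**
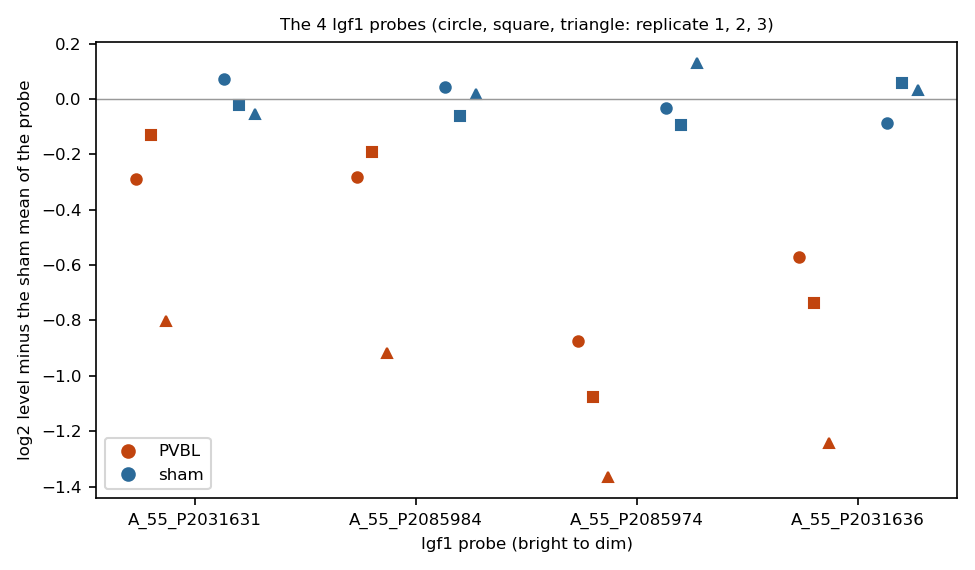
Log2 level of the 4 Igf1 probes after subtraction of each probe's sham mean, PVBL left of sham in each pair, from the brightest to the dimmest probe. PVBL 3 is the lowest point for every probe, and A_55_P2085974 shows the widest gap between groups.

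Igfals, which encodes the acid-labile subunit that holds IGF-1 and IGFBP-3 in a long-lived complex in plasma, fell. Its levels were 2.62, 2.31 and 1.88 in PVBL livers, against 3.38, 3.11 and 3.07 in sham livers. The groups were apart, and the difference was -0.92 ± 0.21 (limma adjusted p = 0.0182), or 1.89-fold lower. The call was lost without sham 1 (-0.82).

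Across the axis, PVBL 3 had the lowest level of its group in 12 of the 16 probes, from 6 genes (Ghr, Stat5a, Socs2, Igf1, Igfals and Bcl6), and the highest in the other 4, from Jak2, Stat5b and Cish. Sham 2 had the lowest level of its own group nearly as often, in 11 of the 16 probes, from 7 genes. Probes of 1 gene are not separate observations in these counts. PVBL 3 had the highest summed level of the 9 macrophage markers with a probe (293 times the 75th percentile, against 116 and 123 on PVBL 1 and PVBL 2 and 152 to 171 in sham). It had the lowest summed level of the 10 hepatocyte markers (4362, against 4960 and 5574 on PVBL 1 and PVBL 2 and 6161 to 6815 in sham) and of the erythroid markers (295, against 386 and 485 on PVBL 1 and PVBL 2 and 494 to 614 in sham). Their part in these levels was not tested. Without PVBL 3 the count of probes called lower was again 8.

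In whole tissue, fewer cells of a type and less RNA per cell cannot be told apart. Each marker gene was called by its brightest tested probe. By that rule 14.4% of all genes tested were higher and 16.8% lower, and several of the counts below lie near these shares. The summed level of the 10 hepatocyte markers was 4362 to 5574 in PVBL and 6161 to 6815 in sham, with 2 of the 10 called lower and 0 higher. Endothelial markers summed to 49.1 to 74.7 in PVBL and 110 to 117 in sham (2 of 8 lower), stellate cell markers to 104 to 124 in PVBL and 115 to 123 in sham (2 of 9 higher, 1 lower), and biliary markers to 8.07 to 23.2 in PVBL and 2.65 to 5.29 in sham (4 of 6 tested higher, with Epcam not above background in enough arrays to be tested). All 6 cell division markers were higher, with summed levels of 71.3 to 110 in PVBL and 1.18 to 1.42 in sham. The macrophage markers had 1 of 9 higher, neutrophil markers 0 of 5 called, T and NK markers 3 of 7 lower, B lymphocyte and plasma cell markers 1 of 6 lower and erythroid markers 2 of 4 lower. The part of these differences in the falls of Ghr, Jak2, Stat5b, Igf1 and Igfals was not tested.

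Of 33 genes of growth hormone receptor signalling, 32 were tested, each by its brightest probe: 0 rose, 7 fell and 25 did not pass the threshold. By the same rule 14.4% of all 13582 genes tested rose and 16.8% fell (31.2% in all). The count of genes called in the list was 3 without sham 1 and 4 without sham 2 or sham 3. The median was -0.06, against -0.10 over all genes. Irs2, an insulin receptor substrate that is also phosphorylated after growth hormone, was 2.65-fold lower (-1.41 ± 0.30, limma adjusted p = 0.0142), a call that went without sham 1 (-1.25) or sham 2 (-1.29). Btrc, the ubiquitin ligase subunit that takes part in removing the receptor from the cell surface, was 2.17-fold lower in 1 of 2 tested probes (-1.11 ± 0.22, limma adjusted p = 0.0107), with a difference of -0.59 after normexp background correction. Sos1, which activates Ras, had a difference of -1.07 ± 0.21 (limma adjusted p = 0.0116; -0.50 with normexp) and was above background on 2 of the 3 PVBL arrays. Socs7, a further SOCS family member, was 1.78-fold lower (-0.83 ± 0.15, limma adjusted p = 0.00897). Nr3c1, the glucocorticoid receptor gene, and Socs1, named after their values were seen, also fell (-0.65 and -0.44). Socs3, the inflammation-induced inhibitor of JAK signalling, had a difference of -0.09 ± 0.53 (limma adjusted p = 0.903), Stat3 of -0.34 ± 0.22 (limma adjusted p = 0.252) and the phosphatase gene Ptpn11 of 0.21 ± 0.14 (limma adjusted p = 0.279), also named after their values were seen.

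Among the IGF binding proteins, receptors and IGFBP proteases, 10 of 15 genes were tested; 1 rose and 3 fell, where 14.4% of all genes rose and 16.8% fell, with a median of -0.41 against -0.10 over all genes. Only 1 was called without sham 1 or without sham 2. Igfbp3, the main IGF-1 carrier beside the acid-labile subunit, had a difference of -2.41 ± 0.34 (limma adjusted p = 0.00334), or 5.33-fold lower, above background on 2 of the 3 PVBL arrays, and -1.44 with normexp. Insr, the insulin receptor gene, fell by 0.86 on the log2 scale (limma adjusted p = 0.0183), with 2 of its 3 probes called, and Igfbp4 fell by 0.69 (limma adjusted p = 0.0179). Igf2r, the receptor that clears IGF-2, was 1.46-fold higher (0.54 ± 0.15, limma adjusted p = 0.0316). Insr lost its call without sham 1 (-0.74) or sham 2 (-0.89). Igfbp4 lost its call without sham 1, sham 2 or sham 3 (-0.71 to -0.67), and Igf2r did so without any 1 array but sham 3 (0.45 to 0.59). Igf1r, the receptor of IGF-1 itself, had a difference of -0.67 ± 0.27 (limma adjusted p = 0.0982), named after its value was seen.

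Genes known as sex-biased outputs of growth hormone in the liver were read beside the axis. Of 21 tested genes that are higher in male liver, 11 fell and 0 rose, where 16.8% of all genes fell and 14.4% rose, with a median of -0.78 against -0.10 over all genes. The count called was 5 without sham 1 or sham 3. Hsd3b5, a steroid dehydrogenase, was 11.3-fold, Elovl3, a fatty acid elongase, 5.18-fold, the transporter Slco1a1 4.15-fold and Mup21, a major urinary protein, 4.11-fold lower, although Mup genes are near-identical copies and a value for 1 of them is uncertain. The call of Hsd3b5 was lost without sham 1, sham 2 or sham 3 (-3.69 to -3.22), its difference was -2.21 without PVBL 3 and -4.26 without PVBL 2, and the call of Slco1a1 was lost without sham 1 or sham 3 (-2.02 and -1.94). Of 16 tested genes that are higher in female liver, 2 rose and 4 fell, where 14.4% of all genes rose and 16.8% fell, with a median of -0.09. The count called was 2 without sham 1. Prom1, a membrane glycoprotein, was 7.90-fold higher (and 2.42 on the log2 scale with normexp). Biliary markers rose on the same arrays (4 of 6 tested), and their part in the Prom1 value was not tested. Lifr (2 of its 3 tested probes called), Vldlr and Gna14 were 2.80-fold, 2.78-fold and 2.75-fold lower (Gna14 at -0.92 on the log2 scale with normexp). The call of Lifr was lost without sham 1 (-1.53) or sham 3 (-1.15), and the Vldlr call was lost without sham 1 (-1.30) or sham 2 (-1.31). Lists of male-biased and female-biased genes had been examined in these data before, so these counts are no separate evidence. With spike-in scaling, of the genes named from the 4 lists only Hsd3b5, Elovl3, Slco1a1, Mup21, Igfbp3 and Prom1 passed the threshold.

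**Figure D5:**
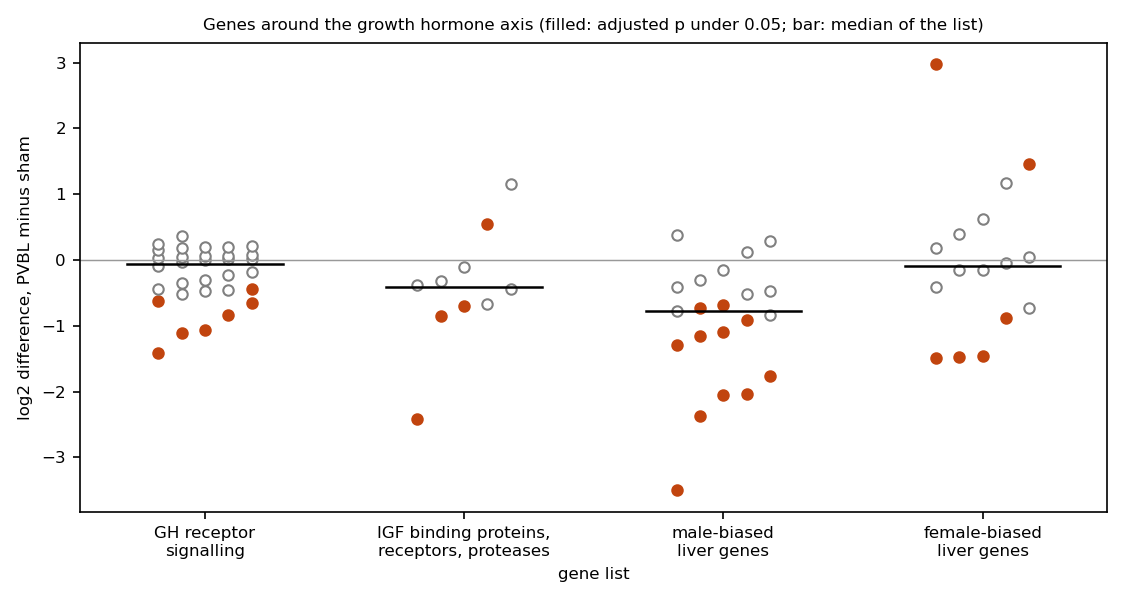
Log2 difference of PVBL minus sham (vertical axis) for the tested genes of 4 gene lists, 1 point per gene, filled where the adjusted p was under 0.05, with a bar at the median of each list. The medians lie at -0.06, -0.41, -0.78 and -0.09 from left to right, and the lowest point, at -3.50, is Hsd3b5 of the male-biased list.

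The genes whose levels over the 6 arrays were most like those of Ghr, Socs2 and Igf1 were found by Pearson's r between the brightest probes of all genes tested. The 3 nearest to Ghr were Higd2a, Uqcc3 and Lactb (r = 0.999, 0.998 and 0.998), with log2 differences of -0.50, -0.75 and -0.86. The 3 nearest to Igf1 were Ces1d, a liver carboxylesterase, Cyp2c38, a cytochrome P450 of a family with near-identical copies, and Slc45a3 (r = 0.998, 0.997 and 0.996). The 3 nearest to Socs2 were Pcsk7, Rdh8 and Pcgf1 (r = 0.992, 0.989 and 0.988), none of which passed the threshold between groups (differences -0.19, -0.12 and -0.22). These coefficients are the highest of many over 6 arrays that share the group difference and PVBL 3, and they are given as a description.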

How the data were processed

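Total RNA of 6 samples of right liver lobe, 3 per group, was hybridised to Agilent single-colour arrays. The deposited scanner files hold 1 row per spot, made with Agilent Feature Extraction (version 10.7.3.1 per the file headers, 9.1 per the submitters' processing notes), with intensity as the unit: the processed signal of the authors' files is background-subtracted, per the file headers. The deposited series value table holds 7850 probes on a log2 scale centred per probe, as found by comparison with the scanner values; its rows all separate the groups, so it was used only as an alternative (r of at least 0.9997 with the scanner values, column medians from -0.22 to -0.15 in PVBL and from 0.15 to 0.18 in sham).

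Control spots and outlier-flagged spots were left out, log2 processed signal was taken relative to each array's 75th percentile, and spots of a probe were averaged. A probe entered the test when 1 of the groups, or both, had it well above background in all 3 livers; tests used limma 3.58.1 in R 4.3.3, comparing PVBL with sham, with Benjamini-Hochberg adjustment over all tested probes. Each gene of a list was read from its brightest tested probe, and probes of 1 gene were compared by a limma fit on their differences. Accessions gave a gene name to 26413 of 55681 probes. Text names all probes of the 10 genes, up to 4 called genes with the largest change per list, and the 3 genes nearest in pattern to Ghr, Socs2 and Igf1. Members and lists were chosen with earlier results of these data known. Alternatives were other background correction, scaling, filters, array weights, the replicate number as a block, the value table, and each array left out; the number of arrays limits the precision. The normexp alternative took the median spot signal, where the mean had been planned. The fits were tested on simulated data.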

Additional observations from a re-analysis of the deposited data

How the results depend on the processing

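With normexp, quantile or median scaling, or a filter requiring signal on all arrays, 7 or 8 of the 16 probes were called lower. Over all alternatives run, 501 single-probe values kept direction and call, 75 lost and 8 gained a call, and 11 turned. Quantile scaling gave 4 probe pairs in place of 2. Spike-in scaling left 0 probes lower, 0 genes of receptor signalling, 2 of the IGF list, 5 male-biased and 3 female-biased genes, and turned Socs2 A_51_P107362 (0.034), Igf1 A_55_P2031631 (0.030), Pcsk7 (0.25), Rdh8 (0.31), Pcgf1 (0.22) and Slc45a3 (0.19). Median scaling turned Rdh8 (0.0076). Testing all probes with no filter, which adds dim probes to the adjustment, left 4 probes lower, 0 pairs, and 2, 1, 4 and 2 genes of the 4 lists in that order. Array weights gave 1 probe higher, 12 and 7 genes of the receptor and IGF lists, and turned the Socs2 probes (0.061, 0.048 and 0.10) and Pcgf1 (0.0051). The value table gave 1 pair and 2 female-biased genes. The fit with a replicate block left 8 probes lower but 0 pairs; it called 2829 probes higher and 4561 lower over all tested. Deviations of same-numbered arrays correlated at 0.20, -0.04 and 0.23. PVBL 1 and PVBL 3 correlated best with the sham array of their own number, and PVBL 2 with sham 1 (0.11). The match was thus incomplete, and numbers, which also mark the slide column, were not taken as pairs in the main fit. Leaving out each array in turn gave 5 to 8 probes lower, 0 to 1 pairs, 3 to 7 receptor genes, 1 to 5 IGF genes, 5 to 11 male-biased and 2 to 7 female-biased genes. Over all tested probes, calls were 3142 higher and 5374 lower, against 1676 and 1945 with no filter, 5367 and 10374 with array weights, 2273 and 368 with spike-in scaling, and 2232 and 3264, 1962 and 2198, 2147 and 2961, and 2168 and 2820 without PVBL 1, sham 1, sham 2 and sham 3 in that order. Except where said, the cause was not tested. Values of Cux2 are limited by background.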
